A study of Mus musculus with 8 samples.

Results

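The 10 genes described here encode the AP-1 subunits Fos, Fosb, Fosl2, Jun, Junb and Jund, their relatives and partners Batf, Irf4 and Irf8, and the repressor Bach2. They were chosen by symbol, and each was found once among the 39056 genes of the count table. All 10 were among the 12619 genes that passed the low-count filter and were tested. Both groups were CD4+ T cells sorted by flow cytometry out of combined spleen and lymph nodes. The mice were of strain C57BL/6J and had been given bone marrow transduced with a retrovirus. All samples carried the labelled genotype CD4-Cre TCRβtg Tcra-/-, so that a transgenic T cell receptor (TCR) beta chain was present and the endogenous alpha chain was deleted in both groups. The retrovirus supplied the SAS TCRα chain in 4 libraries (SAS, replicates 1, 2, 3 and 6) and the ANT TCRα chain in the other 4 libraries (ANT, replicates 1, 3, 4 and 5). Each group therefore represents 1 receptor and is called a clone here in that sense only. The labels give no age, do not state what the Cre deletes, and do not say that each library came from its own mice, so p-values measure only the spread between these samples, which may be technical. The title of the series places the comparison in the study of self-reactive CD4+ clones that resemble T follicular helper cells at steady state.

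AP-1 is a dimer of basic leucine zipper (bZIP) proteins, most often a FOS protein with a JUN protein, that binds the site TGACTCA. Most FOS and JUN genes are immediate early genes: in T cells, TCR signals induce them through MAP kinases within minutes, and AP-1 then joins NFAT at cytokine genes. BATF is a bZIP protein without an activation domain of its own; it pairs with JUN proteins and recruits IRF4 or IRF8 to composite sites in activated T cells. BACH2 is a bZIP repressor that competes with AP-1 for its sites and holds T cells back from effector differentiation.

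Library totals were 27600959 to 31810799 counts in SAS and 27818608 to 30230856 in ANT (exact two-sided permutation p = 0.886, where 0.0286 is the smallest that 4 against 4 libraries allow). Levels are given as counts per 1000000 of the TMM-scaled library total (CPM). Cd4 (907 ± 66.6 CPM in SAS, 936 ± 59.8 CPM in ANT, SD, n = 4 each) and Cd3e (507 ± 18.6 CPM in SAS, 515 ± 45.3 CPM in ANT) were present in both clones (adjusted p 0.753 and 0.878). Of the 6 CD4+ T cell markers, Thy1 (log2 ratio −1.89, adjusted p 3.21e-06) and Trac (−0.65, adjusted p 0.000293) were lower in SAS and the other 4 were not called. Cd8b1, a gene of CD8+ T cells, had 290 counts in SAS against 3755 in ANT (adjusted p 0.000109). Cd8a, the other listed gene of these cells, was not called (log2 ratio −1.49, adjusted p 0.0919). Their sum was 1.99 to 4.49 CPM in SAS libraries and 39.7, 66.8, 24.0 and 14.1 CPM in ANT replicates 1, 3, 4 and 5. The part of CD8+ T cells in the results was not tested. The first principal component separated the clones and held 73.7% of the variance. The second held 10.6%, and its values were negative in SAS replicates 2 and 3 and in ANT replicates 4 and 5 and positive in the other 4 libraries. The labels name no batch, and this division recurs in most of the genes described here. Differences were tested with edgeR's quasi-likelihood test across all tested genes and called where the Benjamini-Hochberg adjusted p was under 0.05. The log2 ratio throughout is the fitted log2 fold change of SAS over ANT, and SE its standard error.

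Proximal promoters are shown for 6 of the genes. Fos, Fosb, Jun and Junb were taken from the 7 genes that had the same high and low libraries in SAS. Irf4 and Irf8 were taken because they separated the clones most widely. Fosl2, Jund and Bach2 also had that order in SAS and are not shown. Each line gives the 120 bases upstream of the RefSeq start (GRCm38.p6, the mm10 build), 5′ to 3′ on the gene's strand, with matches to the motifs TGACG, TGACATCA and TATAAA in capitals. TGACG begins the cyclic AMP response element bound by CREB and ATF proteins, TGACATCA is the AP-1-like element of the Jun promoter, and TATAAA is the TATA box.
Fos, chr12:85473770-85473889, plus strand: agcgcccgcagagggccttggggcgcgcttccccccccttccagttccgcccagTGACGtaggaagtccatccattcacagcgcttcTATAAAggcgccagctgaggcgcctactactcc
Fosb, chr7:19310046-19310165, minus strand: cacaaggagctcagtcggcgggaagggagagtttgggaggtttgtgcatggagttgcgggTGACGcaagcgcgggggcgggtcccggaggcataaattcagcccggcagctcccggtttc
Jun, chr4:95052223-95052342, minus strand: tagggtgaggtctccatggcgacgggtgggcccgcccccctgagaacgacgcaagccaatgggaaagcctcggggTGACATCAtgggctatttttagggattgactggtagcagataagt
Junb, chr8:84978749-84978868, minus strand: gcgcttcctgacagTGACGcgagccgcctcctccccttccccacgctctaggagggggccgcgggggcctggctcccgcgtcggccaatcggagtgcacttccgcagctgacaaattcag
Irf4, chr13:30749113-30749232, plus strand: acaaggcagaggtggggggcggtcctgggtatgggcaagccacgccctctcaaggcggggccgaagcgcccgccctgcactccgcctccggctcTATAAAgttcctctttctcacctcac
Irf8, chr8:120736238-120736357, plus strand: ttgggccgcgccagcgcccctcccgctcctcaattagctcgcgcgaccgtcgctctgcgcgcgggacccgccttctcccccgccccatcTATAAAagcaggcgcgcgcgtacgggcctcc
TGACG, searched on both strands, was found in the windows of 4 of the 10 genes, which are Fos (66 to 62 bases upstream), Fosb (60 to 56), Junb (106 to 102) and Batf (98 to 94), and in 11.7% of 32851 RefSeq windows of the same length. TGACATCA, on both strands, was found for Jun alone (45 to 38 bases upstream) and in 2.1% of windows. TATAAA, on the gene's strand, was found for Fos, Irf4 and Irf8 and in 4.19% of windows. The AP-1 site TGACTCA, on both strands, was found in none of the windows of the 10 genes and in 2.3% of all windows. Fosl2, Jund and Bach2, which shared the order of SAS libraries, had no match to any of these motifs. Batf had TGACG and did not share that order. The motifs were chosen after the windows had been read, and a match describes letters, not binding.

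SAS cells had more transcripts of Irf4, Irf8 and Fosl2 and fewer of Jun and Junb than ANT cells. The largest difference was that of Irf4, at 16.1 times the ANT level. Fos, Fosb, Jund, Batf and Bach2 were not called. The 5 calls among 10 genes stand against 37.4% of all tested genes called in either direction. Of these, 3 were higher in SAS (19.8% of all tested genes) and 2 were lower in SAS (17.7%), and in 4 of the 10 genes the clones did not overlap (38.1% of all tested genes). These shares are near the background of a comparison in which many genes differ, and so the counts alone say little about these genes. The median log2 ratio was 0.38 over the 10 genes and −0.0032 over all tested genes, and the median of its absolute value was 1.26 over the 10 genes and 0.35 over all tested genes.

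**Figure D1:**
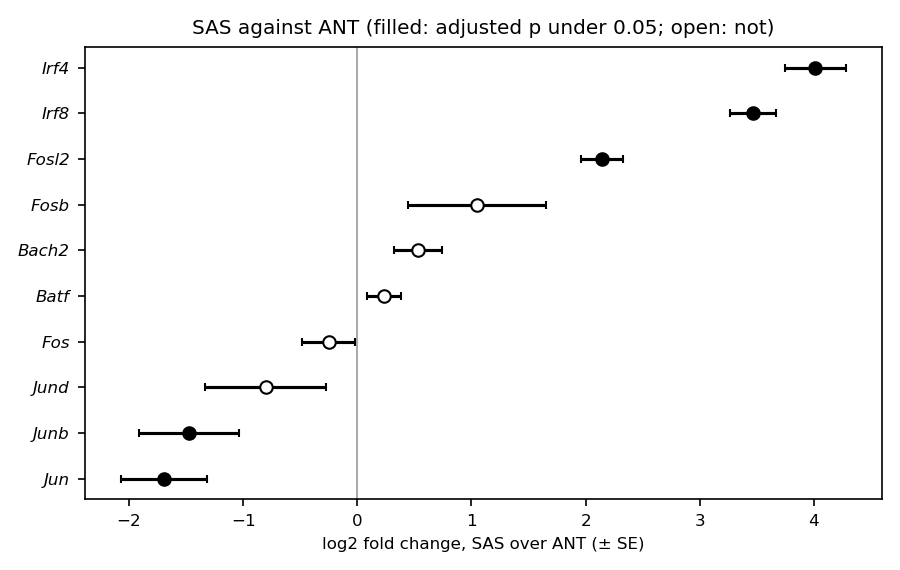
Log2 ratio of each gene, SAS over ANT, on the horizontal axis, with 1 gene per row and bars of ± 1 SE from edgeR's fit on 4 SAS and 4 ANT libraries. Filled points passed an adjusted p of 0.05, with Irf4, Irf8 and Fosl2 to the right of 0 and Jun and Junb to the left, and open points did not.

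Among the FOS genes, Fos (ENSMUSG00000021250, chromosome 12, 85473890 to 85477273, plus strand, mm10) encodes the classical partner of JUN. It was at 427, 751, 865 and 440 CPM in SAS replicates 1, 2, 3 and 6, against 905, 727, 616 and 706 CPM in ANT replicates 1, 3, 4 and 5. SAS replicates 1 and 6 lay below every other library, while SAS replicates 2 and 3 lay within the ANT range. The means were 621 ± 221 CPM in SAS against 738 ± 121 CPM in ANT (log2 ratio −0.25, SE 0.23, adjusted p 0.44).

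Fosb (ENSMUSG00000003545, chromosome 7, 19302696 to 19310051, minus strand) encodes a FOS protein that is also an immediate early product. SAS replicates 1, 2, 3 and 6 had 119, 758, 616 and 107 CPM, and ANT replicates 1, 3, 4 and 5 had 190, 94.5, 220 and 269 CPM. Thus the 2 highest of the 8 libraries were SAS libraries, and the other 2 SAS libraries lay within the ANT range. The highest SAS library exceeded the lowest 7.1-fold, against 2.85-fold among ANT libraries. Means were 400 ± 337 CPM in SAS against 193 ± 73.6 CPM in ANT, and the log2 ratio of 1.05 (SE 0.61, adjusted p 0.203) did not pass the test. It was 0.53 without SAS replicate 2 and 1.36 without SAS replicate 6, the lowest and highest values with 1 library left out.

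Fosl2 (ENSMUSG00000029135, chromosome 5, 32135801 to 32157842, plus strand) encodes FRA2, a FOS protein without the strong activation domain of FOS. It was at 49.3, 80.4, 71.9 and 54.1 CPM in SAS replicates 1, 2, 3 and 6, against 11.1, 14.9, 16.0 and 15.9 CPM in ANT replicates 1, 3, 4 and 5. Every SAS library lay above every ANT library, and within SAS replicates 2 and 3 were again the higher ones. Its mean was 63.9 ± 14.7 CPM in SAS against 14.5 ± 2.27 CPM in ANT, a 4.42-fold excess (log2 ratio 2.14, SE 0.18, adjusted p 1.09e-05). In whole-population RNA such as this, a larger share of expressing cells and more RNA per cell cannot be told apart.

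Jun and Junb were lower in SAS. Jun (ENSMUSG00000052684, chromosome 4, 95049034 to 95052222, minus strand), the founding JUN subunit, had 71.5, 174, 244 and 86.5 CPM in SAS replicates 1, 2, 3 and 6 and 443, 293, 529 and 602 CPM in ANT replicates 1, 3, 4 and 5. All ANT libraries exceeded all SAS libraries, although ANT replicate 3 and SAS replicate 3 came close. The mean of 144 ± 80.7 CPM in SAS, against 467 ± 133 CPM in ANT, gave a log2 ratio of −1.70 (SE 0.38, adjusted p 0.00536), 3.24 times more in ANT. The call was lost without ANT replicates 4 and 5 (log2 ratio −1.38, adjusted p 0.103) and with the replicate number as a block (−1.44, adjusted p 0.573). The block takes the clone difference from replicates 1 and 3 alone, so neither fit draws on ANT replicates 4 and 5.

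Junb (ENSMUSG00000052837, chromosome 8, 84974484 to 84978718, minus strand) encodes a JUN protein known to pair with BATF in helper T cells. Its levels were 169, 392, 540 and 180 CPM in SAS replicates 1, 2, 3 and 6 and 595, 469, 1301 and 1193 CPM in ANT replicates 1, 3, 4 and 5. SAS replicate 3 lay above ANT replicate 3, so the clones overlapped, and ANT replicates 4 and 5 stood well above the other 6 libraries. The mean was 320 ± 179 CPM in SAS against 890 ± 418 CPM in ANT (log2 ratio −1.47, SE 0.43, adjusted p 0.0224). This call was lost when SAS replicate 1 or 6 or ANT replicate 4 or 5 was left out (adjusted p 0.052 to 0.0753), and without both ANT replicates 4 and 5 the log2 ratio was −0.76 (adjusted p 0.301). Junb shares 173 bases of exon with Prdx2 on the opposite strand, which had 14320 counts in SAS and 6623 in ANT. The strand setting of the counting is not given in the sources used here.

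Jund (ENSMUSG00000071076, chromosome 8, 70698949 to 70700616, plus strand) encodes a JUN protein that is also present in resting cells. Counts scaled to 75.2, 185, 340 and 89.6 CPM in SAS replicates 1, 2, 3 and 6 and to 163, 132, 494 and 416 CPM in ANT replicates 1, 3, 4 and 5. Each clone had a low and a high pair of libraries, and the pairs of the 2 clones interleaved. The log2 ratio was −0.80 (SE 0.53, adjusted p 0.267) from means of 172 ± 122 CPM in SAS against 301 ± 181 CPM in ANT, and it turned to 0.20 (adjusted p 0.836) without ANT replicates 4 and 5. Jund overlaps the antisense gene Gm11175 by 877 bases, Jun overlaps the antisense gene Junos by 232, and neither antisense gene is in the count table.

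Batf (ENSMUSG00000034266, chromosome 12, 85686669 to 85709087, plus strand) differed little between libraries. It was at 29.4, 20.8, 23.6 and 30.0 CPM in SAS replicates 1, 2, 3 and 6, against 23.0, 20.1, 25.2 and 20.0 CPM in ANT replicates 1, 3, 4 and 5. SAS replicates 1 and 6, which were low for Fos and the JUN genes, were the highest of all 8 libraries here. Means of 25.9 ± 4.47 CPM in SAS against 22.1 ± 2.52 CPM in ANT gave a log2 ratio of 0.23 (SE 0.15, adjusted p 0.239).

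Irf4 (ENSMUSG00000021356, chromosome 13, 30749226 to 30766976, plus strand) encodes the factor that joins BATF at composite sites and rises in T cells with the strength of the TCR signal. SAS replicates 1, 2, 3 and 6 had 263, 120, 241 and 231 CPM, and ANT replicates 1, 3, 4 and 5 had 10.3, 14.9, 16.4 and 11.4 CPM. The lowest SAS library, replicate 2, was still far above the highest ANT library. The mean was 214 ± 64.1 CPM in SAS against 13.2 ± 2.86 CPM in ANT (log2 ratio 4.01, SE 0.27, adjusted p 2.21e-06), and the call held under all 20 alternatives, with log2 ratios of 3.9 to 4.34. The summed level of 3 plasma cell markers, genes of another cell type that expresses Irf4, was 3.4 to 14.2 CPM in SAS and 3.28 to 9.27 CPM in ANT, most of it Jchain. Within that list, Sdc1 had 80 counts in SAS, 48 of them in replicate 2, against 14 in ANT. The part of plasma cells in the Irf4 difference was not tested.

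Irf8 (ENSMUSG00000041515, chromosome 8, 120736358 to 120756694, plus strand), the closest relative of Irf4, is best known from dendritic cells, monocytes and B cells and can also join BATF. It was at 109, 85.1, 134 and 88.8 CPM in SAS replicates 1, 2, 3 and 6, against 9.07, 7.61, 12.4 and 8.55 CPM in ANT replicates 1, 3, 4 and 5, with no overlap. The SAS mean of 104 ± 22.4 CPM was 11.1 times the ANT mean of 9.41 ± 2.09 CPM (log2 ratio 3.47, SE 0.20, adjusted p 9.21e-07). Of the genes that define other IRF8-expressing cells, some were at or near 0, others ran with Irf8 at low counts, and some ran the other way. Xcr1 had 0 counts in both clones, Siglech 0 in SAS and 1 in ANT, Clec9a 1 in each, and Cd14 0 in SAS and 1 in ANT. Among dendritic cell markers, Itgax was counted 49 times in SAS against 2 in ANT, and Zbtb46 28 times in SAS against 7 in ANT. Among monocyte and macrophage markers, Csf1r had 68 counts in SAS, 62 of them in replicate 2, against 9 in ANT. Lyz2 had 83 in SAS and 43 in ANT, Fcgr3 45 in SAS and 25 in ANT, and C1qa 11 in SAS and 3 in ANT. Cd68, of the same list, was called lower in SAS (log2 ratio −0.73, adjusted p 0.0153), and Lyz2 was not called (0.88, adjusted p 0.332). Of the B cell markers, Pax5 had 11 counts in SAS and 25 in ANT, Cd79a 109 in SAS and 91 in ANT, Cd79b 98 in SAS and 77 in ANT, and Fcer2a 9 in SAS and 2 in ANT. The part of these cell types in the Irf8 difference was not tested. The sum over the 10 B cell markers was 127 to 188 CPM in SAS and 644 to 697 CPM in ANT, nearly all of it Ighm. The sum over 8 dendritic cell markers was 50.7 to 62.8 CPM in SAS and 148 to 174 CPM in ANT, nearly all of it Ccr9 and Bst2, and that over 7 macrophage and monocyte markers was 2.9 to 8.1 CPM in SAS and 4.45 to 6.0 CPM in ANT.

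Bach2 (ENSMUSG00000040270, chromosome 4, 32238804 to 32586108, plus strand), the repressor that opposes AP-1, was at 184, 271, 281 and 208 CPM in SAS replicates 1, 2, 3 and 6, against 123, 129, 182 and 220 CPM in ANT replicates 1, 3, 4 and 5. Only ANT replicate 5 and SAS replicates 1 and 6 overlapped. Means were 236 ± 47.5 CPM in SAS against 163 ± 46.0 CPM in ANT, a 1.44-fold ratio (log2 ratio 0.53, SE 0.21, adjusted p 0.0679). The difference missed the threshold, and it passed under 6 of 20 alternatives, among them DESeq2 (adjusted p 0.0406) and the fits without SAS replicate 1 (log2 ratio 0.63, adjusted p 0.0446) or ANT replicate 5 (0.70, adjusted p 0.0158). Without ANT replicates 4 and 5 the log2 ratio was 0.88 (adjusted p 0.00288), and without ANT replicates 1 and 3 it was 0.23 (adjusted p 0.345). Bach2 shares 537 bases of exon with the antisense gene Bach2os, which is not in the count table.

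**Figure D2:**
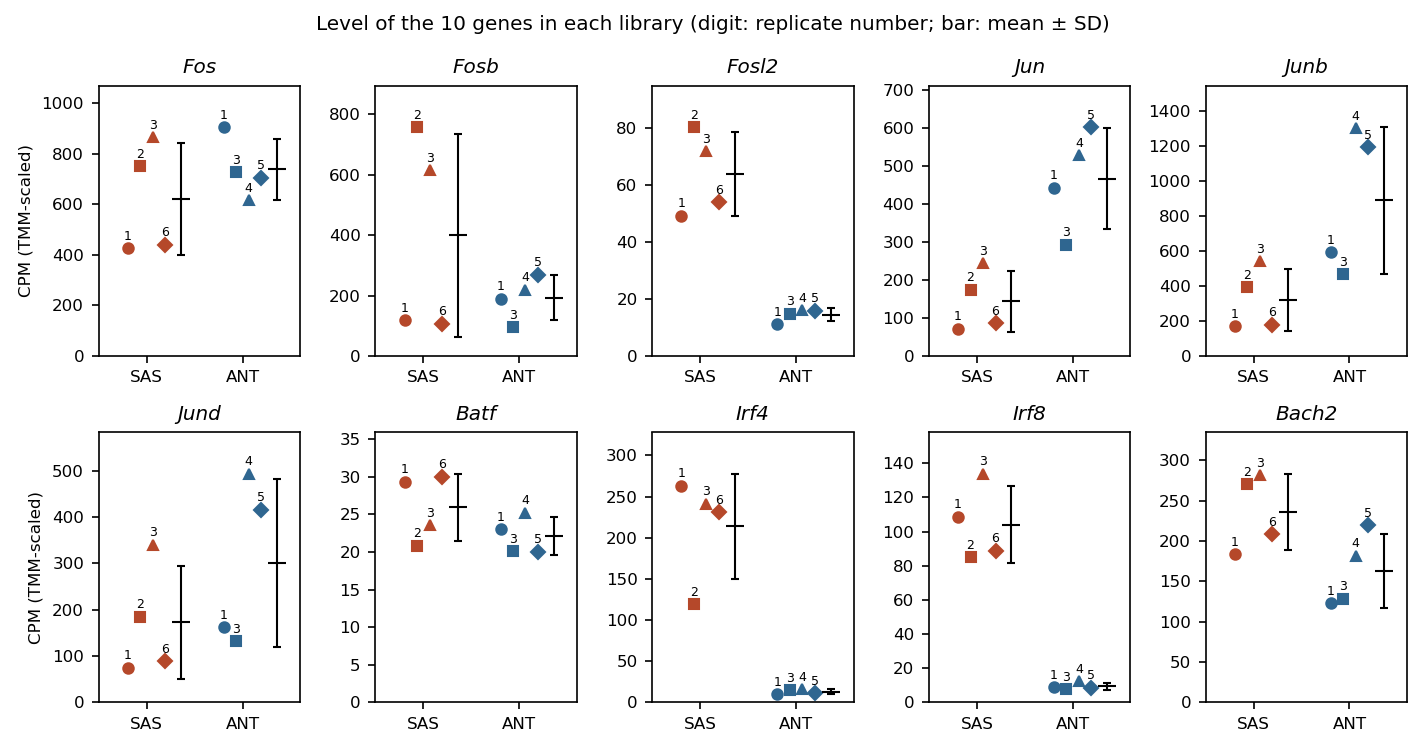
Level of each gene in CPM (vertical axes start at 0 and differ between panels) in 4 SAS and 4 ANT libraries, with the replicate number at each point and mean ± SD beside each clone. Irf4, Irf8 and Fosl2 separate with SAS above ANT, Jun separates with ANT above SAS, and Fosb, Junb and Jund show a high and a low pair of libraries within a clone.

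Within each clone, the same libraries were high for several of the genes. SAS replicates 2 and 3 both lay above SAS replicates 1 and 6 for 7 of the 10 genes (Fos, Fosb, Fosl2, Jun, Junb, Jund and Bach2), an order found for 28.4% of all tested genes. ANT replicates 4 and 5 both lay above ANT replicates 1 and 3 for 6 of the 10 (the same genes without Fos), which holds for 35.9% of all tested genes. These divisions were read from the values and carry no test. The 7 genes are all 6 FOS and JUN genes and Bach2, whereas Batf, Irf4 and Irf8 did not follow the order in either clone.

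The spread within a clone was widest for Fosb in SAS and for Jund in ANT. The SD of log2 CPM of Fosb was 1.51 in SAS and 0.656 in ANT, larger than for 99.2% of tested genes in SAS and 93.7% in ANT, against medians over all tested genes of 0.192 in SAS and 0.252 in ANT. Jund had an SD of 1.0 in SAS and 0.953 in ANT, larger than for 97.9% of tested genes in SAS and 98.2% in ANT. Jun (0.835 in SAS, 0.453 in ANT) and Junb (0.83 in SAS, 0.73 in ANT) also spread widely. Fos spread more in SAS (0.523, above 89.6% of genes) than in ANT (0.23, above 45.1%), where its order of libraries was also different. Such a spread was not confined to FOS and JUN genes. Irf4 had an SD of 0.522 in SAS (above 89.5% of genes) and 0.313 in ANT (above 62.8%).

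**Figure D3:**
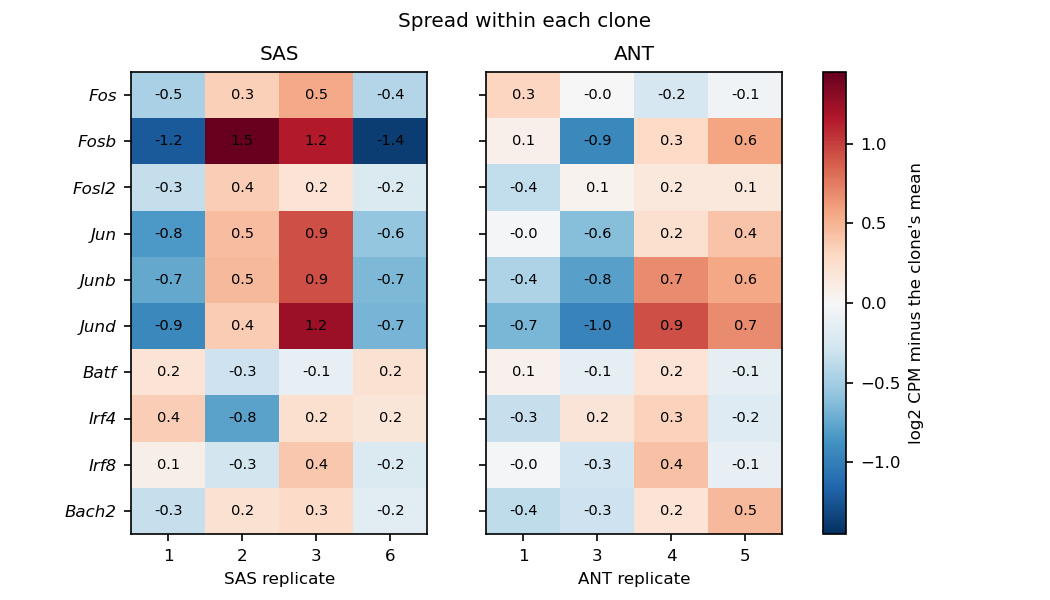
Log2 CPM of each gene (rows) in each library (columns) minus the mean of that gene in its own clone, for SAS on the left and ANT on the right. SAS replicates 2 and 3 are positive and replicates 1 and 6 negative for the FOS and JUN genes and Bach2, and in ANT replicate 3 is the lowest for Fosb and the JUN genes.

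Some other values differed between the same libraries, in either direction. The 2 haemoglobin genes of the red cell list, Hbb-bs and Hba-a1, summed to 1.49, 4.63, 1.03 and 0.803 CPM in SAS replicates 1, 2, 3 and 6 and to 0.69, 0.845, 4.72 and 9.69 CPM in ANT replicates 1, 3, 4 and 5, highest in SAS replicate 2 and ANT replicates 4 and 5. Hspa1b, a heat shock gene whose counts may be split with its near-identical copy Hspa1a, was at 37.5, 17.9, 26.6 and 61.1 CPM in the SAS libraries and at 274, 232, 4.22 and 33.4 CPM in the ANT libraries, in the same order. It was thus lowest where the JUN genes were highest in ANT, and lower in SAS replicates 2 and 3 than in replicates 1 and 6. Hsph1, another heat shock gene, ran the other way in ANT, at 272, 269.5, 284 and 292 CPM in the SAS libraries and at 89.3, 50.1, 305 and 403 CPM in the ANT libraries, so that it was highest in ANT replicates 4 and 5. Both were chosen after their values were seen. The sum over 8 heat shock genes was 4595, 3229, 3715 and 4222 CPM in SAS replicates 1, 2, 3 and 6. In ANT replicates 1, 3, 4 and 5 it was 3723, 2770, 3354 and 3782 CPM. Of the 8 genes, 1 had SAS replicates 2 and 3 above 1 and 6 (28.4% of all tested genes). In 3 of the 8, ANT replicates 4 and 5 lay above 1 and 3 (35.9%). Of those with the highest levels, Hspd1 was called higher in SAS (log2 ratio 0.80, adjusted p 0.0059), and Hspa8 and Hsp90aa1 were not called. The part of these measures in the levels of AP-1 genes was not tested.

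To compare genes with each other, CPM were divided by the length of the union of annotated exons. On this scale Fos led in SAS (264 ± 94.0 CPM per kb in SAS, 314 ± 51.6 in ANT) and Junb in ANT (139 ± 77.7 in SAS, 387 ± 182 in ANT). Jund followed at 103 ± 73.1 CPM per kb in SAS and 180 ± 108 in ANT, then Fosb at 64.0 ± 53.9 in SAS and 31.0 ± 11.8 in ANT and Jun at 45.2 ± 25.3 in SAS and 146 ± 41.7 in ANT. The mean ± SD ranges of neighbours in this order overlapped in each clone, except that in ANT Fosb lay below both Jund and Jun.

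Irf4 lay within the Jun range in SAS and far below it in ANT, at 43.6 ± 13.1 CPM per kb in SAS and 2.7 ± 0.584 in ANT. Bach2 had 23.7 ± 4.78 CPM per kb in SAS and 16.4 ± 4.62 in ANT and overlapped with Batf (18.4 ± 3.18 in SAS, 15.7 ± 1.79 in ANT). The lowest levels were those of Irf8 (14.8 ± 3.18 in SAS, 1.33 ± 0.296 in ANT) and Fosl2 (6.61 ± 1.51 in SAS, 1.49 ± 0.234 in ANT), and these 2 overlapped in ANT and not in SAS. The 4.42-fold excess of Fosl2 in SAS was thus one of a small FOS fraction. With the length of the longest transcript instead, Irf8 (30.0 CPM per kb in SAS) moved above Batf (27.2) and Bach2 (26.6) in SAS, and Fosb (106) moved above Jund (103). In ANT, Batf (23.1 CPM per kb) moved above Bach2 (18.4) and Irf8 (2.71) above Fosl2 (2.21).

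Shares of the FOS and JUN transcripts were computed from these levels and are given as a description. They leave out other AP-1 relatives such as Fosl1, Batf and Jdp2. Protein was not measured, so the make-up of AP-1 dimers is not known from them. Summed per kb, the 3 FOS genes were at 206, 449, 474 and 210 CPM per kb in SAS replicates 1, 2, 3 and 6, against 416, 326, 299 and 345 in ANT replicates 1, 3, 4 and 5. The 3 JUN genes summed to 141, 336, 515 and 159 CPM per kb in SAS and to 495, 375, 1027 and 957 in ANT, in the same order of libraries. FOS genes made up 47.9% to 59.3% of the FOS and JUN sum in SAS libraries and 22.5% to 46.5% in ANT libraries, with no overlap.

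Within the JUN sum, Junb held the largest share in every library, 49.4% ± 2.84 in SAS and 54.0% ± 1.22 in ANT. Jund held 34.6% ± 3.41 in SAS and 23.9% ± 4.24 in ANT, and Jun held 16.0% ± 0.914 in SAS and 22.1% ± 5.23 in ANT, where it was lowest in the libraries with the highest JUN sum. Within the FOS sum, Fosb made up 27.1% and 20.8% in SAS replicates 2 and 3 and 9.25% and 8.15% in SAS replicates 1 and 6, against 4.64% to 12.5% in ANT. Fosl2 made up 2.14% ± 0.517 in SAS and 0.444% ± 0.118 in ANT.

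**Figure D4:**
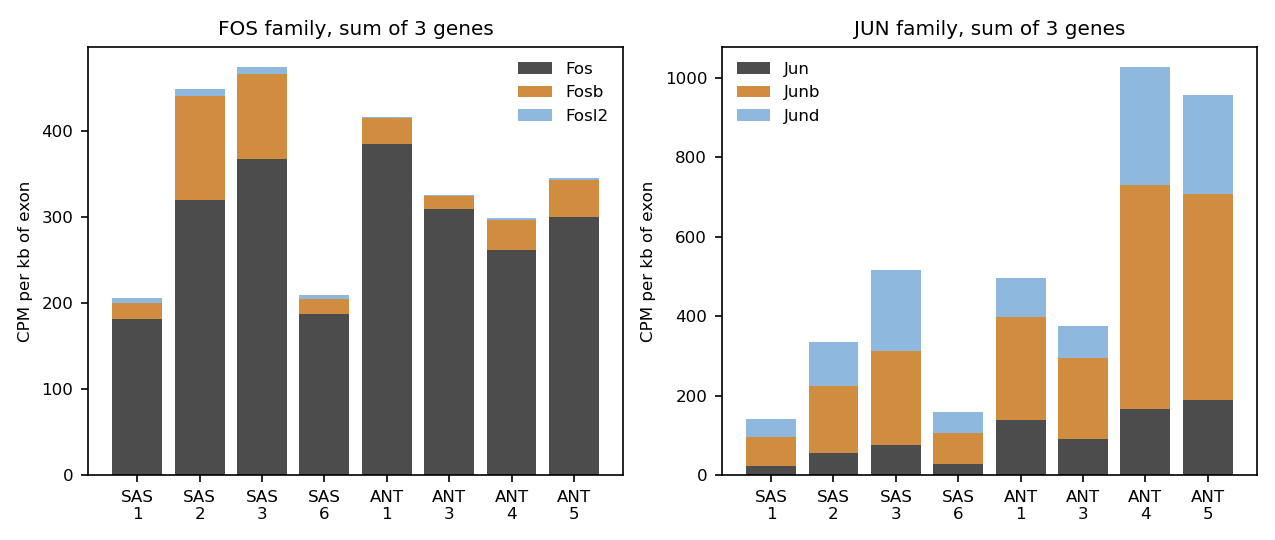
Stacked level of the FOS genes (left) and the JUN genes (right) in CPM per kb of exon, 1 bar per library, SAS libraries left of ANT libraries. The JUN bars of ANT replicates 4 and 5 reach 1027 and 957, and the Fosb section is widest in SAS replicates 2 and 3.

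For each gene, the tested genes with the most similar profile over the 8 libraries were found among 8340 genes of at least 10 mean CPM, by the root mean square (RMS) difference of gene-centred log2 CPM. Klf6, a Krüppel-like immediate early factor, was closest to both Jun (RMS 0.23) and Junb (0.223), which were themselves 0.281 apart. Klf2, a factor of quiescent and recirculating T cells, was closest to Jund (0.126). It was at 77.5, 218, 373 and 98.3 CPM in SAS replicates 1, 2, 3 and 6, against 218, 174, 552 and 460 CPM in ANT replicates 1, 3, 4 and 5, the same order of libraries as Jund.

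Sik1, an inducible kinase, came closest to Fosb but at a larger distance (0.409), and Camk4, a calcium-dependent kinase, came closest to Fos (0.186). Bach2 had the closest match of the 10 genes, Smarca4, the ATPase of the BAF chromatin remodelling complex (0.0597), and Batf ran nearest to Eif4e3 (0.0858). An RMS difference is smaller for genes that vary less, such as Batf. Fosl2 was nearest to Ikzf3, an Ikaros family factor (0.154). Irf4 was nearest to Egr2 (0.401) and Nr4a1 (0.408), and Irf8 to Gfod1 (0.231), Pou2f2 (0.259) and Nr4a1 (0.26). Egr2 and Nr4a1 are both TCR-induced, but a gene with a large log2 ratio is matched mainly on that ratio. It was 4.01 for Irf4, 3.82 for Egr2 and 3.67 for Nr4a1. Within SAS, Irf4 was lowest in replicate 2, Egr2 in replicate 3 and Nr4a1 in replicate 1.

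Among 28 other AP-1 and bZIP genes tested of 38 listed, 8 were higher in SAS, 7 were lower in SAS and 13 were not called, so that 53.6% were called, against 37.4% of all tested genes. The median log2 ratio was 0.11. Jdp2 and Fosl1 passed the low-count filter only through SAS, so the counts of this list are a description. Of those higher in SAS, Jdp2, Atf6, Fosl1 and Maf had the smallest p-values. Jdp2, which encodes a JUN-dimerizing repressor, had 717 counts in SAS against 6 in ANT (adjusted p 1.08e-06), and Fosl1, which encodes the FOS protein FRA1, had 96 in SAS and 1 in ANT (adjusted p 4.02e-05). Atf6, a sensor of endoplasmic reticulum stress, was at 36.0 ± 1.80 CPM in SAS against 12.6 ± 1.86 CPM in ANT (log2 ratio 1.51, SE 0.13, adjusted p 8.91e-06). Maf, a factor of T follicular helper cells, was at 23.1 ± 7.97 CPM in SAS against 6.09 ± 2.20 CPM in ANT (log2 ratio 1.92, SE 0.30, adjusted p 0.00068).

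Of those lower in SAS, Dbp, a PAR bZIP factor of the circadian clock, had a log2 ratio of −1.02 (adjusted p 0.000152), Cebpb had a log2 ratio of −1.94 (adjusted p 0.00812) and Nfe2l2, which encodes the oxidative stress factor NRF2, had one of −1.27 (adjusted p 0.00047). Bach1, the close relative of Bach2, was at 50.1 ± 4.18 CPM in SAS against 63.8 ± 3.95 CPM in ANT (log2 ratio −0.35, adjusted p 0.0177), a call lost in 6 of 20 alternatives. Other BATF genes and Atf3 had few counts. Batf3 had 0 counts in SAS against 1 in ANT, Batf2 had 7 in SAS and 9 in ANT, and Atf3 had 101 in SAS and 1 in ANT. None of these 3 passed the low-count filter.

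The other IRF genes that were called were lower in SAS, opposite to Irf4 and Irf8. Of 10 genes listed and tested, 3 were called, each lower in SAS, and 7 were not. The share called was 30.0%, against 37.4% of all tested genes, so the count alone says little about the family. The list also holds Irf2bp1, Irf2bp2 and Irf2bpl, which encode IRF2-binding proteins and are not IRF genes, and none of them was called. Irf7, an inducer of type I interferon, was at 46.8 ± 3.19 CPM in SAS against 105 ± 15.4 CPM in ANT (log2 ratio −1.17, SE 0.12, adjusted p 3.65e-05). Irf1 was at 267 ± 27.1 CPM in SAS against 542 ± 35.0 CPM in ANT (log2 ratio −1.02, SE 0.11, adjusted p 4.16e-05), and Irf9, the DNA-binding part of the ISGF3 complex, at 115 ± 4.65 CPM in SAS against 179 ± 17.5 CPM in ANT (log2 ratio −0.64, SE 0.10, adjusted p 0.000583). The median log2 ratio of the list was −0.04 and turned to 0.05 under scaling by library totals, with the same number called in each direction.

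**Figure D5:**
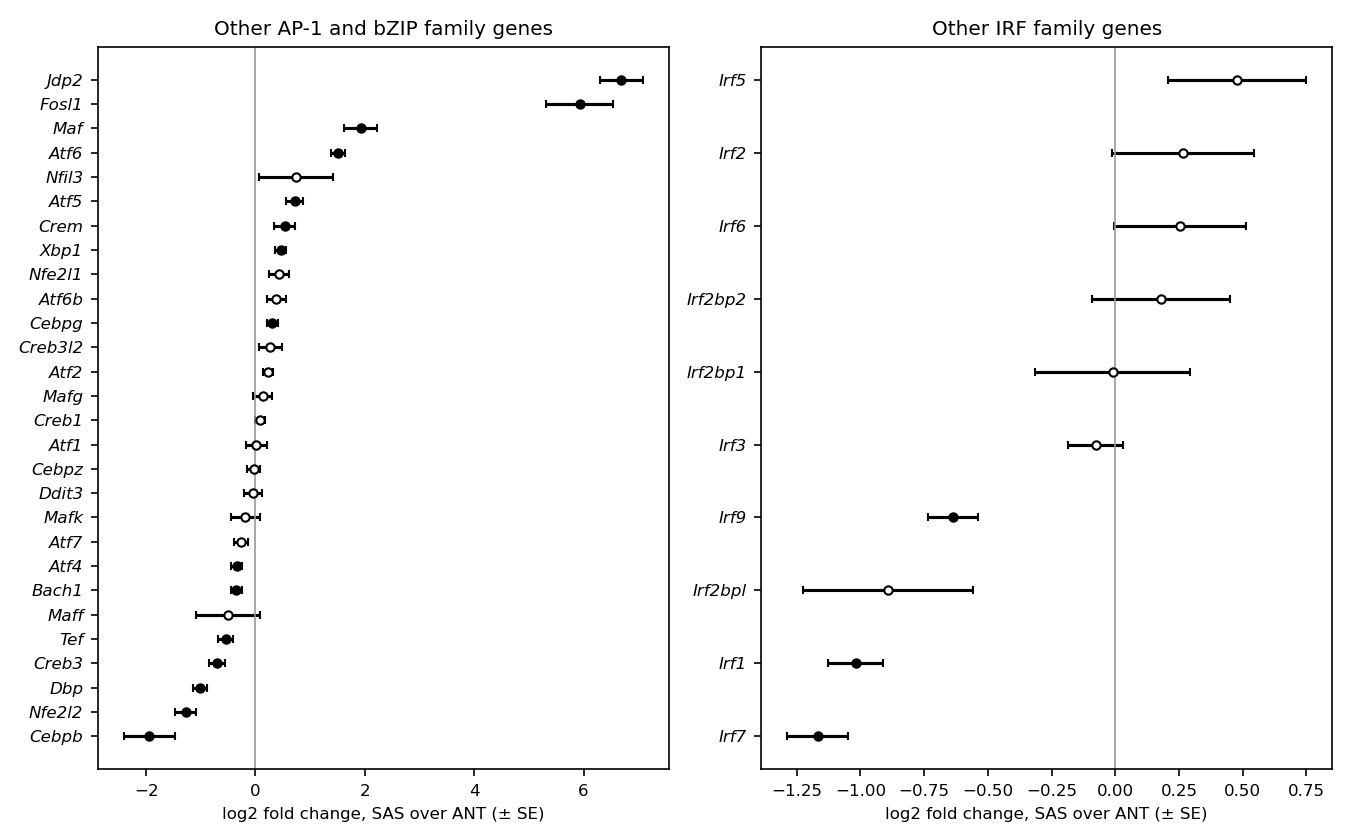
Log2 ratio, SAS over ANT, with bars of ± 1 SE, for 28 other AP-1 and bZIP genes (left) and the 10 genes of the IRF list (right). The IRF list includes the genes of IRF2-binding proteins. Each value is from 4 SAS and 4 ANT libraries, with filled points for an adjusted p under 0.05. Jdp2 and Fosl1 lie far to the right, where fitted values rest on 6 and 1 ANT counts, and Irf7, Irf1 and Irf9 lie to the left of 0.

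Upstream of AP-1, 10 of 40 tested kinases and cofactors were higher in SAS, 3 were lower in SAS and 27 were not called (32.5% called, against 37.4% of all tested genes, median log2 ratio 0.09). Those higher in SAS with the smallest p-values were Elk3, a ternary complex factor that binds serum response elements (153 ± 14.1 CPM in SAS, 45.0 ± 6.24 CPM in ANT, adjusted p 3.07e-06), Mapkapk2 (167 ± 17.2 CPM in SAS, 56.1 ± 12.5 CPM in ANT, adjusted p 3.16e-05), Map3k8 (log2 ratio 1.63, adjusted p 8.96e-05) and Mapkapk3 (0.66, adjusted p 0.000354). Those lower in SAS were Rps6ka3 (log2 ratio −0.60), Prkcq, the protein kinase C of the TCR synapse (−0.33), and Map2k1 (−0.32). With library totals as the scaling, 15 were higher and 1 lower in SAS.

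Of 32 tested immediate early genes other than the AP-1 genes above, 12 were higher in SAS, 4 were lower in SAS and 16 were not called (50.0% called, against 37.4% of all tested genes, median log2 ratio 0.16). Nr4a3, an orphan nuclear receptor induced by TCR signals, was at 736 ± 127 CPM in SAS against 14.5 ± 2.29 CPM in ANT (log2 ratio 5.66, SE 0.19, adjusted p 1.77e-08), and Nr4a1 was at 1316 ± 72.3 CPM in SAS against 103 ± 16.2 CPM in ANT (log2 ratio 3.67). Egr3 and Egr2, zinc finger factors of the same response, had log2 ratios of 4.73 and 3.82. The 4 that were lower in SAS were Klf6 (−1.43, adjusted p 0.0312), Ppp1r15a (−1.33, adjusted p 0.00265), Btg2 (−0.72, adjusted p 0.000111) and Ier2 (−0.56, adjusted p 0.0477), of which Klf6 and Ier2 kept their calls in 9 of 20 alternatives each. The immediate early genes thus moved in both directions, with Jun, Junb, Klf6 and Ppp1r15a on the ANT side and Nr4a and Egr genes on the SAS side. The within-clone order of libraries recurred in this list. SAS replicates 2 and 3 lay above 1 and 6 for 19 of the 32 genes (28.4% of all tested genes). ANT replicates 4 and 5 lay above 1 and 3 for 25 (35.9% of all tested genes). The order was not particular to this list, since it held for 23 (SAS) and 26 (ANT) of the 40 tested kinases and cofactors.

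Among genes known as targets of BATF and IRF4, 19 of 26 listed were tested. Of these, 13 were higher in SAS, 3 were lower in SAS and 3 were not called (84.2% called, against 37.4% of all tested genes, median log2 ratio 2.27). Lag3, an inhibitory receptor (log2 ratio 8.18), Tnfrsf9, the costimulatory receptor 4-1BB (7.97), Pdcd1, the receptor PD-1 (6.49), and Bcl6, the repressor that directs T follicular helper cells (2.27), had the smallest p-values. A listed gene that is low in one clone passes the filter only where the other clone lifts it, so these counts, and those of the lists that follow, are descriptions. The exceptions were Prdm1, Il12rb2 and Rora. Prdm1, which encodes the repressor Blimp-1 and is induced by IRF4 in effector and plasma cells, was at 0.994 ± 0.391 CPM in SAS against 10.5 ± 2.12 CPM in ANT (log2 ratio −3.40, SE 0.29, adjusted p 9.95e-06), opposite to Irf4, and kept its call under all 20 alternatives.

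Of 16 tested genes repressed by BACH2, out of 24 listed, 8 were higher in SAS, 4 were lower in SAS and 4 were not called (75.0% called, against 37.4% of all tested genes, median log2 ratio 1.33). Some of these, such as Tbx21, Cxcr3 (240 counts in SAS, 8 in ANT) and Cx3cr1 (162 in SAS, 5 in ANT), passed the filter only through SAS. Tnfsf11, the cytokine RANKL, was at 35.5 ± 2.66 CPM in SAS against 1.23 ± 0.474 CPM in ANT (log2 ratio 4.84), and Ccr8 at 40.2 ± 18.2 CPM in SAS against 0.986 ± 0.232 CPM in ANT (5.34). Tbx21, the type 1 helper factor T-bet, had 969 counts in SAS against 4 in ANT, and Ccr4 had a log2 ratio of 2.35. Those lower in SAS were Prdm1, the chemokine receptor gene Ccr9 (−1.60), the ferritin gene Fth1 (−0.71) and the glutathione synthesis gene Gclm (−0.55).

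Cytokine genes with NFAT and AP-1 sites were mostly too low to test, with 7 of 16 passing the filter. Of these, 5 were higher in SAS, 1 was lower in SAS and 1 was not called (85.7% called, against 37.4% of all tested genes, median log2 ratio 2.10), and Ifng and Il21 passed the filter only through SAS. Fasl was at 36.6 ± 7.91 CPM in SAS against 8.54 ± 2.85 CPM in ANT (log2 ratio 2.10, adjusted p 0.000101). Ifng had 271 counts in SAS, most of them in replicates 2 and 3 (114 and 107, against 31 and 19 in replicates 1 and 6), and 7 in ANT. Il21, the cytokine of T follicular helper cells, had 103 counts in SAS against 5 in ANT, and Il2, which did not pass the filter, 118 in SAS and 3 in ANT. Cd40lg, which encodes the CD40 ligand of helper T cells, was the one lower in SAS (log2 ratio −0.86, adjusted p 0.0115), at 62.7 ± 5.26 CPM in SAS against 114 ± 40.0 CPM in ANT. Il4 had 1 count in SAS and 0 in ANT, and Il17a had 0 in both.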

How the data were processed

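RNA of sorted CD4+ T cells was sequenced from strand-specific TruSeq mRNA libraries, per the labels. The authors deposited raw counts per gene, made by aligning to mm10 with STAR and counting with featureCounts, per the submitters' processing notes. Versions, annotation release, strand setting and handling of multi-mapped reads are not given in the sources used here, so counts of overlapping genes are uncertain. Of 39056 gene IDs, 38872 matched GENCODE M21 without the version suffix and 184 did not. This annotation supplied symbols, coordinates and exon lengths.

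Genes passing edgeR's default low-count filter (12619) were fitted with edgeR 4.0.16 (robust quasi-likelihood, TMM scaling, R 4.3.3) on all 8 libraries, comparing SAS with ANT and no other term. Benjamini-Hochberg adjustment ran over all genes tested. SE was obtained as the size of the log2 ratio over the square root of F. The fit was tested on simulated data. The genes, gene lists and tests were chosen with earlier results of these data known. From each list, the 4 genes with the smallest p in the list's main direction are named; those that moved against it, and genes given by counts alone, were chosen after their values were seen. Some genes stand in more than 1 list. The principal components used all tested genes.

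Alternatives were RLE, upper-quartile and library-total scaling, a looser and a stricter filter on low counts, limma-voom (limma 3.58.1), DESeq2 1.42.0, a test against a fold of 1.5, a threshold of 0.01, a replicate block, leaving out each library, and leaving out ANT replicates 4 and 5 or 1 and 3. Promoter sequences were taken from RefSeq (GRCm38.p6), which held windows for all 10 genes.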

Additional observations from a re-analysis of the deposited data

How the results depend on the processing

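Under the 20 alternatives, Irf4 (log2 fold change 3.9 to 4.34), Irf8 (3.31 to 3.85) and Fosl2 (2.0 to 2.27) kept their calls, and Fos, Fosb and Batf were called under none. Leaving out 1 library moved the uncalled values between −0.45 and −0.11 for Fos, 0.53 and 1.36 for Fosb and −1.37 and −0.47 for Jund. Jun was not called with the replicate block (−1.44, adjusted p 0.573) or without ANT replicates 4 and 5 (−1.38, 0.103). Junb was not called without a low-count filter (−1.51), against a fold of 1.5 or at a threshold of 0.01 (−1.47 in both), with the replicate block (−0.80) or without ANT replicates 4 and 5 (−0.76); leaving out 1 library gave −1.85 to −1.25, and the call was lost without SAS replicate 1 or 6 or ANT replicate 4 or 5. Jund turned to 0.13 with the replicate block and to 0.20 without ANT replicates 4 and 5. Bach2 was called with library totals (0.63), DESeq2 (0.53), the replicate block (0.85) and without ANT replicates 4 and 5 (0.88), and was at 0.23 without ANT replicates 1 and 3; leaving out 1 library gave 0.41 to 0.70, with calls without SAS replicate 1 (0.63) and ANT replicate 5 (0.70). The causes were not tested.

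Over all genes, 4725 were called, 1836 against a fold of 1.5 and 3044 at 0.01, and SAS-high genes made up 52.8% of calls with TMM and 64.8% with library totals. The block rests on replicate numbers 1 and 3, the only ones that both clones share; the labels do not pair them, the deviations of same-numbered libraries correlated at 0.293 and −0.121 across genes, and the count of calls was 5798. Between 4 and 6 of the 10 genes were called in each alternative. Of 106 other tested genes followed through the alternatives, chosen by the rule or afterwards, 75 were called and 46 of these kept their call and direction in every alternative.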
